A study of Ovis aries with 23 samples.

Results

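PRL, GH1 and POU1F1 were followed in 23 RNA-sequencing (RNA-seq) libraries of the sheep pars tuberalis (PT), the part of the pituitary that reads the melatonin signal of day length. They are 3 of the 25197 genes counted in each library, and were grouped by name as genes of the PIT1 lineage. The choice was made with earlier results of these data known. The gene symbols were paired with the Ensembl identifiers of the count files through the study's lists of genes: ENSOARG00000009137 is PRL, ENSOARG00000013932 is GH1 and ENSOARG00000017058 is POU1F1. PRL codes for prolactin, the hormone of lactotrophs, GH1 for growth hormone, the hormone of somatotrophs, and POU1F1 for PIT1, a POU-domain transcription factor. Some sheep carry a duplicated growth hormone locus with nearly identical copies, and counts given to GH1 cannot be split between such copies.

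PIT1 is required for lactotrophs, somatotrophs and the thyrotrophs of the pars distalis (PD), and binds the promoters of PRL, GH1 and TSHB. Lactotrophs and somatotrophs are cells of the PD, the hormone-secreting body of the anterior pituitary that lies next to the PT, whereas the main endocrine cell of the PT is a thyrotroph that carries melatonin receptors. In sheep, prolactin secretion is high on long days and low on short days, and the PT takes part in that control.

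All samples were PT tissue from neutered male Scottish blackface sheep. The groups were short photoperiods (SPs, 5 samples) and day 1, day 7 and day 28 of long photoperiods (LPs, 6 samples each), so the comparisons ask how each gene's mRNA differed after transfer from SPs to LPs and between days of LPs. The labels do not say whether the samples of a group came from separate animals, so p-values measure only the spread between these samples, which may be technical. The libraries are of bulk tissue, so a lower value can mean fewer cells of a type or less mRNA per cell, and these cannot be told apart.

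Totals of counts ranged from 307952 to 4413929 with a median of 3332320; the shallowest library was LP day 1 sample 4 and the next had 1852503. LP day 1 samples 3 and 4 stood close to each other. Their counts differed by a chi-square of 1.15 per gene, the lowest of 55 pairs within groups, against a median of 16.0 for the pairs of LP day 1, and low depth itself lowers this value. The other pairs with the shallow sample 4 ran from 1.81, the second lowest of the 55, to 7.75. Samples 3 and 4 were kept as separate samples, and results were also computed with them summed or with sample 4 left out. Genes listed as PT thyrotroph markers were present. CGA, the common glycoprotein hormone alpha subunit, averaged 6970 to 8955 CPM (read counts scaled to a common library size) over the groups. TSHB averaged 257 to 1218 CPM. CGA is shared by glycoprotein hormones and the study found TSHB protein in PD thyrotrophs too, so neither marks the PT alone. MTNR1A, the melatonin receptor, was low, at group means of 5.59 to 17.8 CPM, and was listed at 0 in 1 sample. Hormone genes of other pituitary cells were also present in every library. Group means were 3183 to 5085 CPM for LHB of gonadotrophs and 3841 to 4240 CPM for POMC of corticotrophs and melanotrophs.

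PRL was the most counted gene in all 23 libraries. Its share of all counts ran from 2.35% to 21.0% with a median of 8.36%. GH1 was the second to the fourth most counted gene everywhere, with shares from 0.502% to 4.19% and a median of 1.85%. POU1F1 was far lower, with 22 to 944 counts per library, a median share of 0.0137% and a rank by count between 418 and 5220. These are shares of reads, which also depend on transcript length, and do not compare the number of transcripts between genes. Together the 3 genes took 3.27% of counts at the lowest (SP sample 5) and 22.9% at the highest (LP day 28 sample 3). Counting error is small beside these ranges for PRL and GH1, but not for POU1F1 in the shallowest library. There 22 counts gave a share of 0.00714% with an exact Clopper-Pearson 95% interval from 0.00448% to 0.0108%, which covers counting error only. This interval holds the POU1F1 shares of LP day 1 samples 3, 5 and 6, at 0.00816%, 0.00898% and 0.0107%.

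**Figure D1:**
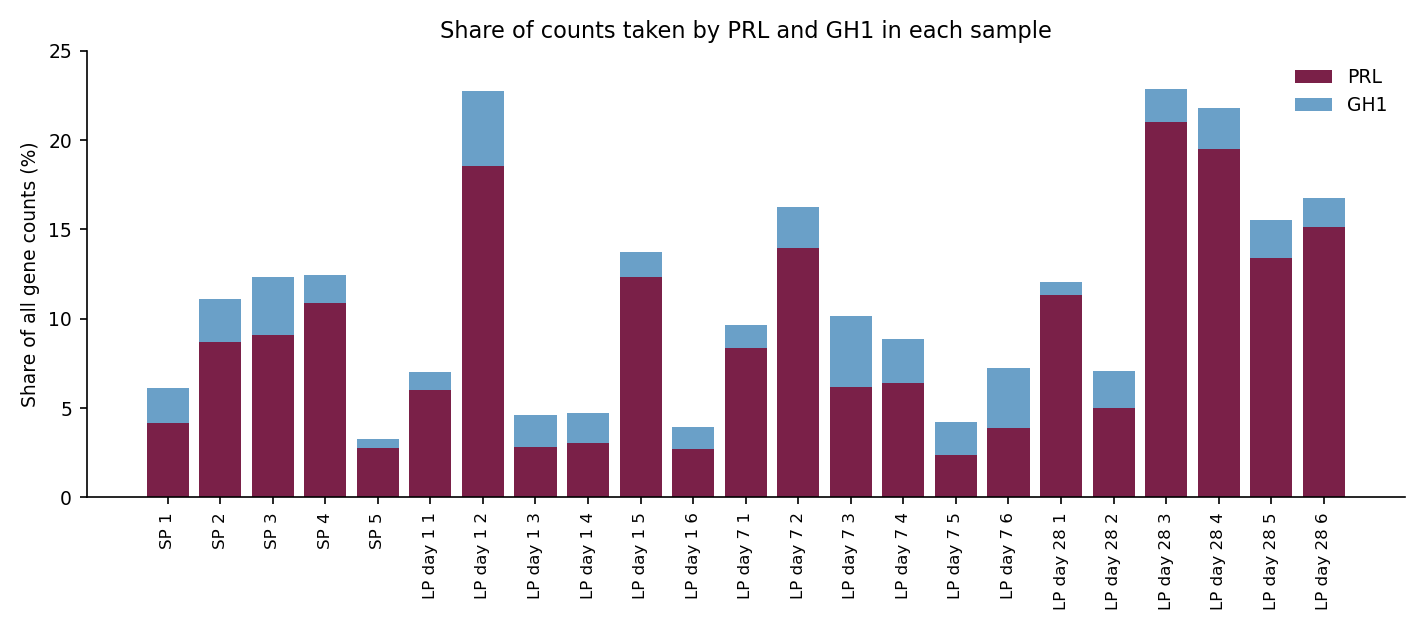
Stacked bars give the share of all gene counts (%) taken by PRL and GH1 in each of the 23 samples; POU1F1 is too low to be seen on this axis. PRL made up most of each bar, and was lowest (2.35%) in LP day 7 sample 5 and highest (21.0%) in LP day 28 sample 3.

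PRL took 4.15%, 8.72%, 9.11%, 10.9% and 2.77% of counts in SP samples 1 to 5. In LP day 1 its share was 2.69% at the lowest, 4.54% at the median and 18.6% at the highest, and in LP day 7 it was 2.35%, 6.30% and 14.0%. LP day 28 had shares of 4.99%, 14.3% and 21.0%. LP day 28 thus held the highest median, while its lowest library, sample 2, lay inside the range of every other group.

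Normalized for library size and composition (trimmed mean of M values, TMM), PRL averaged 72142 ± 37286.5 CPM in SPs (SD, n = 5), 79654 ± 76332 in LP day 1 (n = 6), 68124 ± 43482 in LP day 7 (n = 6) and 153866 ± 70924 in LP day 28 (n = 6). Of the 6 LP day 28 samples, 5 lay above the highest SP sample, 3 above the highest LP day 7 sample and 2 above the highest LP day 1 sample. SP, LP day 1 and LP day 7 covered much the same range, and the mean of LP day 1 rested on sample 2, at 213046 CPM, and sample 5, at 128244 CPM, beside a median of 42536 CPM.

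GH1, by contrast, showed no group set apart. It took 1.97%, 2.40%, 3.22%, 1.57% and 0.502% of counts in SP samples 1 to 5. The lowest, median and highest shares were 1.01%, 1.52% and 4.19% in LP day 1, and 1.31%, 2.36% and 3.98% in LP day 7. In LP day 28 they were 0.749%, 1.96% and 2.30%. All 4 groups overlapped. The means were 19488 ± 10392 CPM in SPs (SD, n = 5), 19288 ± 14353 in LP day 1, 24667 ± 9786 in LP day 7 and 18917 ± 6320 in LP day 28 (n = 6 each), so the order of the groups differed by less than their spread.

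POU1F1 took 0.0126%, 0.0143%, 0.0137%, 0.0151% and 0.00433% of counts in SP samples 1 to 5. Its lowest, median and highest shares were 0.00714%, 0.00986% and 0.0252% in LP day 1, 0.00923%, 0.0147% and 0.0177% in LP day 7, and 0.00928%, 0.0166% and 0.0233% in LP day 28. SP sample 5, the lowest of all for POU1F1, was also the lowest for GH1. In CPM the means were 121 ± 47.2 in SPs (SD, n = 5), 122 ± 83.4 in LP day 1, 135 ± 34.0 in LP day 7 and 172 ± 60.0 in LP day 28 (n = 6 each), and 4 of the 6 LP day 28 samples lay above the highest SP sample.

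**Figure D2:**
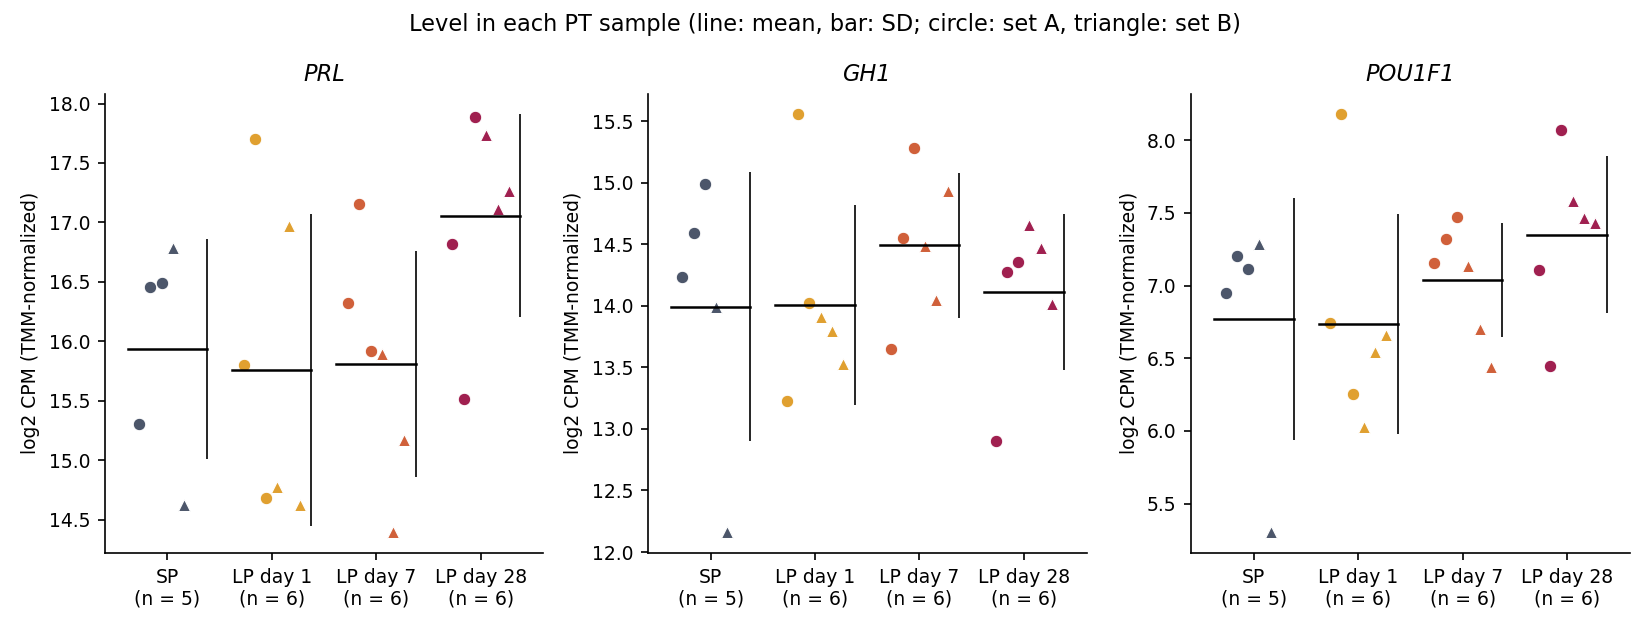
Each point is a sample, with log2 CPM after TMM normalization on the y axis and the 4 groups on the x axis; lines are group means of log2 CPM, bars their SD, and circles and triangles the library sets described in the text. PRL in LP day 28 sits highest with 1 sample, at 46937 CPM, well below the other 5, while SP sample 5 is the lowest point for GH1 (4578 CPM) and POU1F1 (39.5 CPM).

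None of the 3 genes was differentially expressed (DE) at a false discovery rate (FDR) of 0.05 in any of the 6 comparisons. The nearest was PRL at LP day 28. Against SPs its log2 fold change was 1.09 with a standard error (SE) of 0.37, at an unadjusted p of 0.00823 and an FDR of 0.192 in the quasi-likelihood test of edgeR, adjusted by the method of Benjamini and Hochberg. Of the 14929 genes tested in that comparison 0.67% passed, 63 higher and 37 lower, and without TMM factors 45 were higher and 80 lower. Against LP day 7 the log2 fold change of PRL was 1.18 (SE 0.38), at an unadjusted p of 0.00623 and an FDR of 0.506 by edgeR, where 0.00672% of 14890 genes passed. Against LP day 1 it was 0.96 (SE 0.46), at an unadjusted p of 0.0493 and an FDR of 0.622 by edgeR, where 0.216% of 14820 genes passed.

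These 3 comparisons share the LP day 28 samples and are not independent of each other. Leaving out each sample in turn, the log2 fold change of PRL at LP day 28 stayed between 0.87 and 1.31 against SPs, between 1.00 and 1.56 against LP day 7 and between 0.78 and 1.54 against LP day 1, and no FDR fell below 0.0807. An exact test with a dispersion common to all genes, which takes the high spread of PRL for that of an average gene, was the only alternative that put PRL under the threshold, with an FDR of 6.06e-08 against SPs (edgeR).

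In the other comparisons PRL differed by less than its error. Its log2 fold change was 0.13 (SE 0.51) for LP day 1 against SPs, -0.09 (SE 0.41) for LP day 7 against SPs and -0.23 (SE 0.50) for LP day 7 against LP day 1. The first of these turns negative, at -0.45, without LP day 1 sample 2, and the mean log2 CPM of PRL, 15.76 in LP day 1 and 15.93 in SPs, already ran the other way. No gene passed of the 14920 tested in LP day 1 against SPs (0%) by edgeR's quasi-likelihood test, with 497 at an unadjusted p under 0.05, 2 called by DESeq2, 0 by limma voom and 68 by the exact test with common dispersion. In LP day 7 against SPs 0.266% of 15030 genes passed, and in LP day 7 against LP day 1 0.0201% of 14897.

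POU1F1 had the same sign as PRL at LP day 28 with smaller differences. Its log2 fold change was 0.51 against SPs (SE 0.28), at an unadjusted p of 0.0864 and an FDR of 0.447 by edgeR, 0.36 against LP day 7 (SE 0.21) and 0.45 against LP day 1 (SE 0.29). Leaving out each sample in turn, these ran from 0.28 (without SP sample 5) to 0.64 (without LP day 28 sample 2) against SPs, from 0.18 (without LP day 28 sample 3) to 0.49 (without LP day 28 sample 2) against LP day 7, and from 0.28 (without LP day 28 sample 3) to 0.92 (without LP day 1 sample 2, where the edgeR FDR was 0.0543) against LP day 1. The remaining comparisons gave values from 0.05 to 0.16. GH1 ran from -0.38 (SE 0.26) for LP day 28 against LP day 7 to 0.35 (SE 0.33) for LP day 7 against LP day 1, and at LP day 28 against SPs it was -0.05 (SE 0.34). The first ran from -0.51 (without LP day 7 sample 1) to -0.19 (without LP day 7 sample 3), and the second from 0.17 (without LP day 7 sample 3) to 0.86 (without LP day 1 sample 2).

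**Figure D3:**
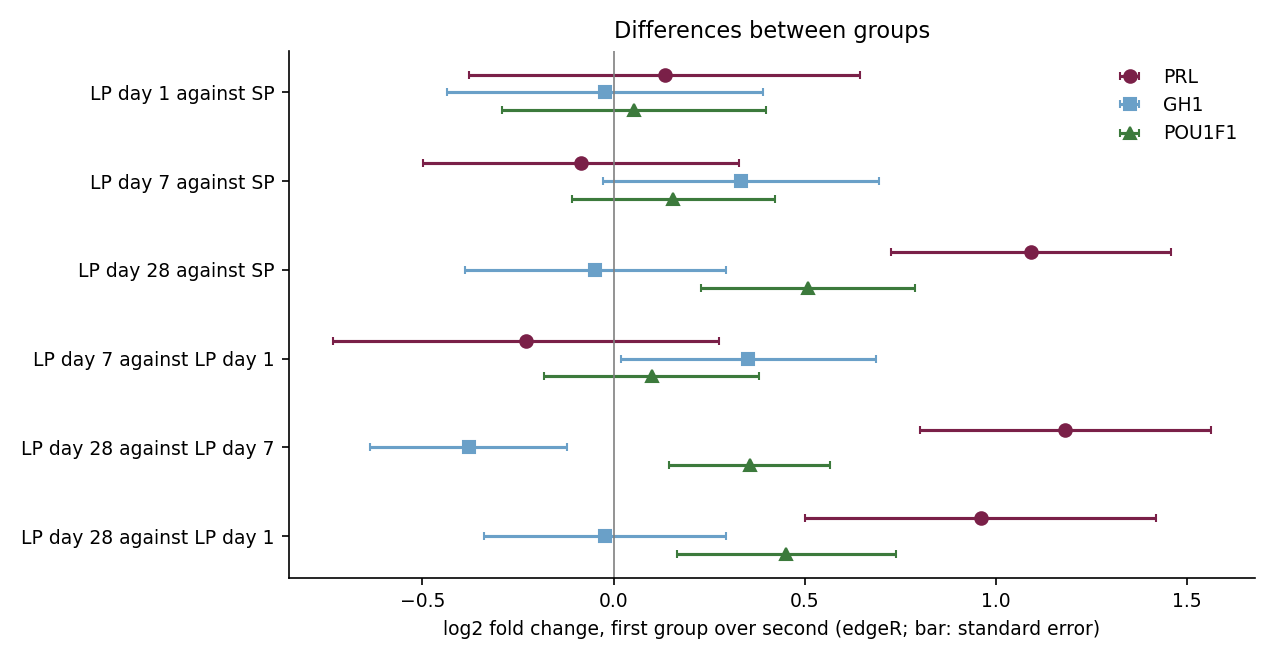
Points are log2 fold changes of PRL, GH1 and POU1F1 from edgeR in the 6 comparisons on the y axis, first-named group over second, with bars of 1 SE. The 3 LP day 28 values of PRL lie between 0.96 and 1.18, and those of GH1 between -0.38 and -0.02.

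The file headers name numbered folders whose numbers repeat between samples 1 to 3 of the groups and samples 4 to 6, which marks out sets of libraries, here called A and B. The labels give no batch. The difference in mean log2 CPM of PRL between LP day 28 and SPs was 0.66 in set A (3 samples against 3) and 1.67 in set B (3 against 2). Between LP day 28 and LP day 7 it was 0.28 in set A and 2.22 in set B, with 3 samples a group. The direction was the same in both sets and the size was not, and whether the sets differ was not tested. For POU1F1 the LP day 28 difference from SPs was 0.12 in set A and 1.19 in set B. For GH1 it was -0.76 and 1.31, opposite in sign. The POU1F1 difference between LP day 28 and LP day 7 was -0.11 in set A and 0.73 in set B, also opposite in sign. With the set as a term in the fit, the log2 fold change of PRL against SPs was 1.06 (SE 0.38, edgeR quasi-likelihood FDR = 0.235).

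A ratio of counts of a pair of genes within a library needs no normalization between libraries. In SPs, PRL had 2.10, 3.64, 2.83, 6.93 and 5.51 counts for each count of GH1 in samples 1 to 5. The lowest, median and highest ratios were 1.58, 3.08 and 9.03 in LP day 1, and 1.17, 2.03 and 6.36 in LP day 7. In LP day 28 they were 2.37, 8.97 and 15.1. The geometric mean was 7.70 at LP day 28 and 2.49 at LP day 7, and 4 of the 6 LP day 28 samples exceeded the highest LP day 7 sample.

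The log2 difference of the PRL to GH1 ratio between LP day 28 and LP day 7 was 1.63 (SE 0.59), with a two-sided exact permutation p of 0.026 and 0.234 after adjustment over 18 tests. It was 0.93 in set A and 2.33 in set B. Against SPs the difference was 1.01 (SE 0.49, exact permutation p = 0.0779, adjusted 0.278), with 4 of 6 LP day 28 samples above the highest SP sample, and was 1.42 in set A and 0.36 in set B.

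The PRL to POU1F1 ratio was 329, 610, 666, 721 and 639 in SP samples 1 to 5, and its lowest, median and highest values were 250, 478 and 1376 in LP day 1. The same values were 207, 429 and 911 in LP day 7 and 538, 871 and 1145 in LP day 28. In LP day 28, 5 of 6 samples lay above the highest SP sample, as they did for PRL itself. The log2 difference was 0.55 against SPs (SE 0.25, exact permutation p = 0.0433, adjusted 0.26) and 0.94 against LP day 7 (SE 0.33, exact permutation p = 0.0216, adjusted 0.234). It was 0.54 in set A and 0.48 in set B against SPs, and 0.39 and 1.49 against LP day 7. GH1 to POU1F1 had lower geometric means at LP day 28, 109, than in SPs, 149, LP day 1, 154, and LP day 7, 176, and none of its 6 comparisons had an unadjusted exact permutation p under 0.108. Its log2 difference between LP day 28 and SPs was -0.88 in set A and 0.11 in set B, opposite in sign. No ratio passed adjustment in any comparison, and the smallest p the design allows is 0.00433 for 5 against 6 samples and 0.00216 for 6 against 6.

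**Figure D4:**
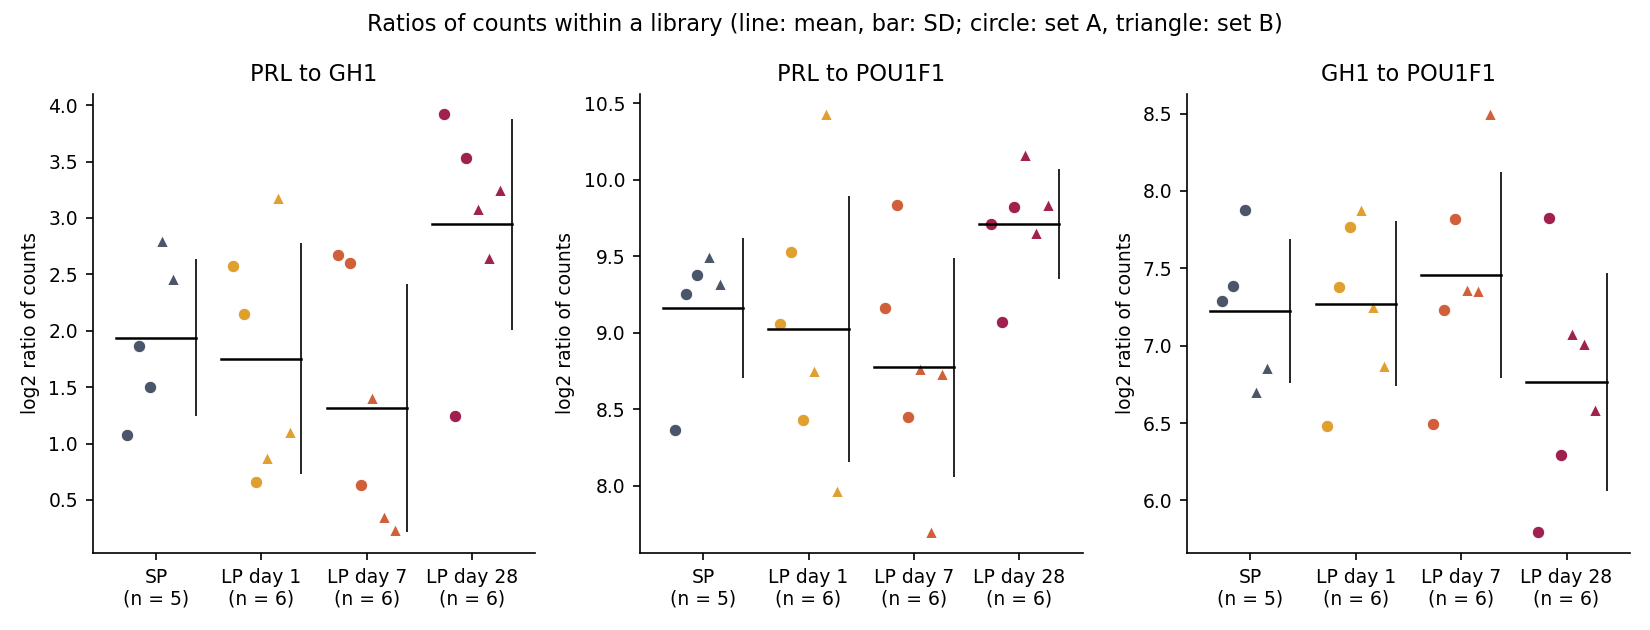
Each point is a library, with the log2 ratio of the counts of the named genes on the y axis and the groups on the x axis; lines are means, bars SD, circles set A and triangles set B. PRL to GH1 is highest at LP day 28 (mean 2.95 on the log2 scale) and lowest at LP day 7 (1.32), with overlapping points.

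Within groups the 3 genes were among the more variable of the tissue. The pooled within-group SD of log2(CPM + 1) was 1.03 for PRL, 0.79 for GH1 and 0.64 for POU1F1, against a median of 0.33 over 15653 genes. PRL ranked 113 from the top, GH1 497 and POU1F1 1595. Among the 200 genes nearest in level to each, the SD of PRL was above all 200, that of GH1 above 199 and that of POU1F1 above 199. For PRL and GH1, at or near the top by count, these genes lay almost all at lower levels, so level was not matched. The highest sample of a group was up to 8.44 times the lowest for PRL and 4.43 times for POU1F1, both in LP day 1, and up to 7.12 times for GH1, in SPs.

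PRL and POU1F1 deviated from their group means together. After subtracting group means from log2 CPM, Pearson's r over 23 samples was 0.80 (permutation p = 5e-05, 0.00015 after Benjamini-Hochberg adjustment over 3 pairs) and Spearman's rho was 0.81 (permutation p = 1e-05, the smallest that 100000 permutations can give, adjusted 3e-05). Without LP day 1 sample 6 and LP day 7 sample 5, the samples farthest from the median of PRL, r was 0.84. In set A (n = 12) r was 0.90 (permutation p = 0.00815, adjusted 0.0489) and rho 0.79 (permutation p = 0.025, adjusted 0.15). In set B (n = 11) r was 0.66 (permutation p = 0.236, adjusted 0.354) and rho 0.59 (permutation p = 0.314, adjusted 0.467).

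PRL and GH1 gave r = 0.46 (permutation p = 0.0371, adjusted 0.0371) and rho = 0.41 (permutation p = 0.0669, adjusted 0.0669), and r = 0.43 without the samples farthest from the median of PRL. GH1 and POU1F1 gave r = 0.66 (permutation p = 0.0121, adjusted 0.0182) and rho = 0.59 (permutation p = 0.00924, adjusted 0.0139), and r = 0.48 without LP day 28 sample 1 and SP sample 5. When SP sample 5 and LP day 1 sample 2 were left out, r was 0.070 for PRL and GH1, 0.081 for GH1 and POU1F1 and 0.73 for PRL and POU1F1 (permutation p = 0.00046, adjusted 0.00138). These samples were chosen after their values were seen, for standing low and high for GH1 and POU1F1 in their groups, so a lower r for that pair follows in part from the choice. Whether the 3 correlations differ from each other was not tested. In sets A and B, r was 0.40 and 0.63 for PRL and GH1 (permutation p = 0.399 and 0.187) and 0.56 and 0.68 for GH1 and POU1F1 (permutation p = 0.235 and 0.721).

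Single groups varied in which pair had the highest r, and the differences were not tested. In SPs, where 5 samples were taken as too few to test a correlation, r was 0.87 for PRL and POU1F1, 0.92 for GH1 and POU1F1 and 0.77 for PRL and GH1, and in LP day 1, where samples 3 and 4 stood close to each other, it was 0.78, 0.77 and 0.63, given as a description. In LP day 28, PRL and POU1F1 had r = 0.97 (n = 6, exact permutation p = 0.00278, adjusted 0.0167 over 6 relations) and rho = 0.94 (exact permutation p = 0.0167, adjusted 0.1), and r = 0.88 over the 4 samples left without samples 2 and 3. LP day 7 gave r = 0.74 and rho = 0.77 (n = 6, exact permutation p = 0.103 for each, adjusted 0.308), and r = 0.80 without samples 2 and 5. PRL and GH1 had r = 0.23 in LP day 28 and 0.03 in LP day 7 (exact permutation p = 0.572 and 0.96), with rho = 0.49 and 0.03. GH1 and POU1F1 had r = 0.29 and 0.13 (exact permutation p = 0.492 and 0.813), with rho = 0.66 and 0.26.

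**Figure D5:**
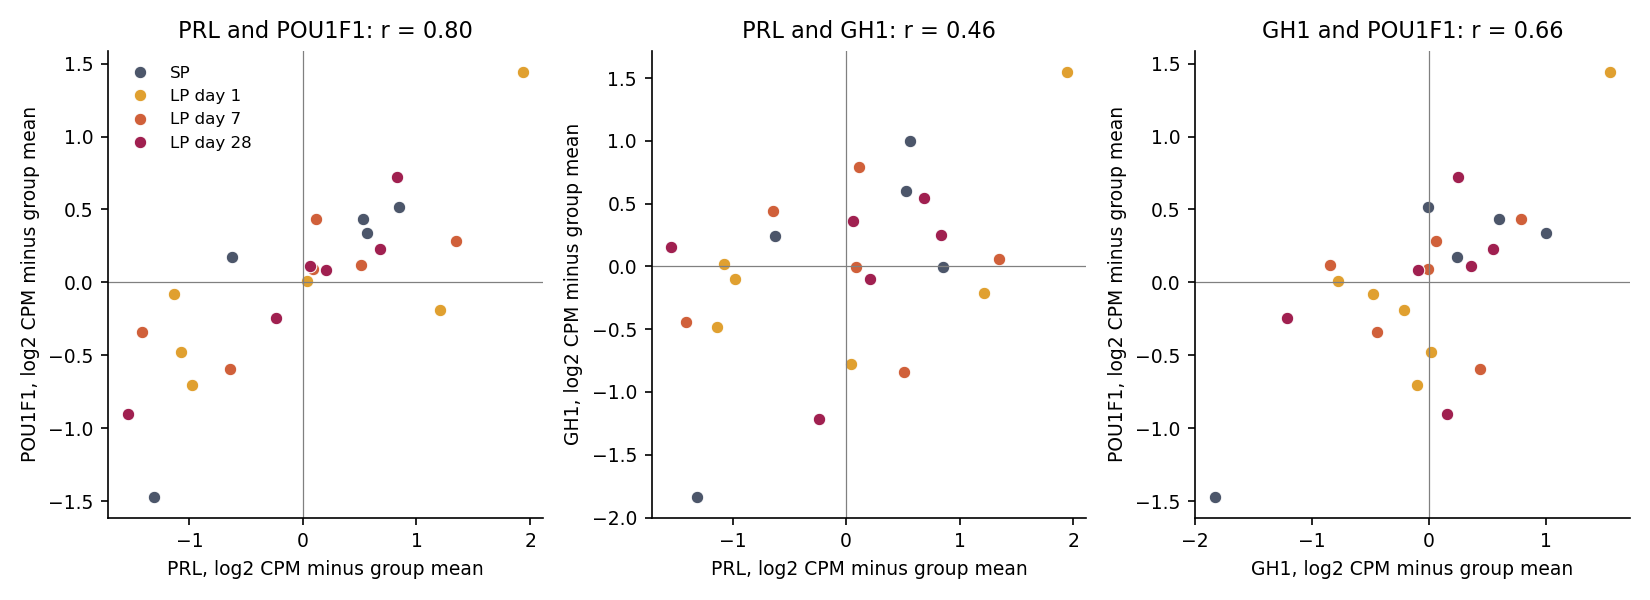
Each point is a sample, with log2 CPM minus the group mean of the named genes on the axes and colours for the 4 groups. PRL and POU1F1 fall along a line (r = 0.80), and in the panels with GH1 (r = 0.46 with PRL, 0.66 with POU1F1) SP sample 5 is the lowest point and LP day 1 sample 2 the highest.

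The genes whose group-centred pattern was most like each member were ranked by Pearson's r over the 23 samples among 10445 genes with a mean of at least 10 CPM. All values of a sample share a library, and these r are a description. For POU1F1 they were ETV1, an ETS transcription factor (r = 0.91), ENSOARG00000017850, with no symbol paired (0.91), ALDH1A1, an enzyme of retinoic acid synthesis (0.88), SIX6, a homeobox factor of the developing pituitary (0.88), and ASIC4, of the acid-sensing ion channel family (0.88). PRL had ASB4, a SOCS-box protein (0.90), and shared ENSOARG00000017850 (0.85) and SIX6 (0.84) with POU1F1, and the other 2 of its 5 had no symbol. GH1 shared none of its 5 with the others. Its list was led by ENSOARG00000007636 (0.92) and held NNAT, the imprinted gene neuronatin (0.78).

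The other genes of the PIT1 pathway could be followed only in part, since 10 of 24 listed had an identifier paired with a symbol, and these pairs come mostly from genes the study called DE in its own samples, so they are not an independent choice. Beside SIX6, NEUROD4, a basic helix-loop-helix factor of the pituitary, followed POU1F1 (r = 0.85, rank 11 of 10445) and less PRL (0.67) and GH1 (0.66). TSHB, the thyrotrophin beta subunit and itself a target of PIT1 in the PD, did not move with them, at r = -0.10 with POU1F1 and 0.00045 with PRL, and CGA had r = -0.03 and -0.30. PITX1, a homeobox factor of all pituitary lineages, had r = 0.09 with POU1F1 and -0.34 with PRL. ESR1 had r = 0.31 with POU1F1 and -0.01 with PRL. THRA ran opposite to all 3 members, at -0.35 with POU1F1, -0.31 with PRL and -0.45 with GH1. The pathway list thus did not move with the 3 members as a whole.

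Between groups, 0 of these 10 genes rose and 1 fell at LP day 28 against SPs, beside 0.67% of all genes tested called. Their median log2 fold change was 0.24 beside -0.0066 over all genes tested. The gene that fell was THRA, a thyroid hormone receptor (log2 fold change -0.44, SE 0.08, edgeR quasi-likelihood FDR = 0.0169). At LP day 28 against LP day 1, where 0.216% of all genes tested passed, TSHB was the only gene of the list to rise. Its log2 fold change was 2.25 (SE 0.18, edgeR quasi-likelihood FDR = 5.51e-07), from 257 ± 82.4 to 1218 ± 228 CPM (SD, n = 6 each). Against SPs, at 362 ± 271 CPM (n = 5), its log2 fold change of 1.75 missed the threshold (SE 0.41, edgeR quasi-likelihood FDR = 0.0615). In the other 4 comparisons no gene of the list passed, beside 0% to 0.266% of all genes tested. The hormone receptors GHSR, TRHR and VIPR2 were at group means of 1.90 to 5.94 CPM, and ESR1, the oestrogen receptor, at no more than 32.5 CPM.

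Among 7 genes of secretory granules, SCG3, a granin of hormone granules, followed PRL (r = 0.81, rank 10 of 10445) and POU1F1 (0.78), and PCSK2, a prohormone convertase, had r = 0.56 and 0.59. CHGA, chromogranin A, ran opposite, at -0.52 with PRL and -0.47 with POU1F1. The other genes of the list, CHGB, PTPRN, PCSK1 and VGF, had r = 0.07, 0.02, -0.21 and -0.29 with PRL. With POU1F1 they had r = 0.31, 0.26, 0.07 and -0.06, so the list did not move with PRL as a whole. CHGA fell at LP day 28 against SPs (log2 fold change -1.69, SE 0.15, edgeR quasi-likelihood FDR = 1.28e-05) and against LP day 1 (-1.40, SE 0.17) and in LP day 7 against SPs (-1.14, SE 0.14). VGF, a granule protein, rose at LP day 28 against SPs (1.33, SE 0.27, edgeR quasi-likelihood FDR = 0.0293). Of the 7, 1 rose and 1 fell in that comparison, with a median of 0.43, beside 0.67% of all genes tested called and their median of -0.0066. SCG3 itself had a log2 fold change of 0.46 there (SE 0.13, edgeR quasi-likelihood FDR = 0.104).

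Markers of the PT thyrotroph and of other cell types were set beside PRL. In LP day 28 against SPs, 1 of 6 PT thyrotroph genes rose, EYA3, a transcriptional co-activator (log2 fold change 2.57, SE 0.57, edgeR quasi-likelihood FDR = 0.0481), and 1 fell, CHGA, beside 0.67% of all genes tested. The symbols of these lists and of the granule list were paired in the same way as those of the PIT1 pathway, mostly from genes the study called DE, so these counts are not independent either. EYA3 averaged 31.9 ± 6.02 CPM in SPs (SD, n = 5), at most 37.1. In LP day 28 it averaged 191 ± 196 CPM (n = 6) and ran from 37.6 to 471, so its rise was uneven between samples. The summed level of the PT thyrotroph genes was 11420 to 13535 CPM in SPs and 10622 to 13869 in LP day 28. Most of it was CGA, with means of 8384 and 8955 CPM, which does not mark the PT alone. None of the 3 gonadotroph genes, 3 corticotroph and melanotroph genes, 3 folliculostellate genes and 9 genes of hypothalamic neurons and glia passed in any comparison. Over the 6 comparisons 0% to 0.67% of all genes tested passed.

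The summed gonadotroph genes (LHB, FSHB and GNRHR) ran from 4434 to 7199 CPM in SPs and from 2507 to 4618 in LP day 28. Within groups LHB had r = -0.34 with PRL and 0.22 with GH1. FSHB had r = -0.62 with PRL and -0.02 with GH1, and GNRHR -0.31 and 0.04. POMC, TBX19 and PAX7 summed to 773 to 6716 CPM in SPs and 2561 to 4766 in LP day 28. POMC had r = 0.43 with PRL, 0.61 with GH1 and 0.56 with POU1F1, and TBX19 had -0.08, 0.16 and 0.08. The hypothalamic list summed to 96.9 to 451 CPM in SPs, 48.7 to 747 in LP day 1, 166 to 354 in LP day 7 and 85.7 to 298 in LP day 28, with no gene of it at 0 in more than 1 sample. Of its genes that were ranked, AGRP, a peptide of arcuate neurons, had r = -0.58 with POU1F1, NPY -0.52, TRH -0.47, CARTPT -0.32, MBP -0.18 and KISS1 -0.16. In the same order their r with PRL was -0.33, -0.29, -0.12, 0.01, 0.16 and 0.15, mixed in sign. VIM, vimentin of folliculostellate and other non-endocrine cells, had r = -0.52 with PRL and -0.73 with POU1F1, and S100B and GFAP lay between -0.36 and 0.17 with the same genes. The medians of all these sums were lower at LP day 28 than in SPs, at 4196 against 5192 CPM for gonadotroph, 3963 against 4626 for corticotroph and melanotroph, 1168 against 1317 for folliculostellate, 184 against 294 for hypothalamic and 11134 against 11962 for PT thyrotroph genes. The gonadotroph median was 3344 CPM at LP day 7 and the hypothalamic median 184 CPM at LP day 1, so LP day 28 was not set apart in either. The share of PD tissue in each sample was not measured, and its part in the levels of PRL, GH1 and POU1F1 was not tested.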

How the data were processed

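Whole PT RNA of 23 samples was sequenced by the authors, and the deposited files hold raw counts of reads per Ensembl gene for each sample. The submitters' processing notes name Bowtie, HTSeq and the build Oar_v3.1; versions and strand setting are not given in the sources used here. Groups were taken from the labels. The symbols of 1259 identifiers came from the study's gene lists. No sequence or coordinate of this build was used here. The members, lists and tests were chosen with earlier results of these data known. Named genes are the 3 members, each listed gene with a paired identifier, and the 5 genes most like each member.

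A gene was tested if over 1 CPM in a number of samples no lower than the size of the smaller group. TMM factors were computed and groups compared in pairs by edgeR 4.0.16 (glmQLFit, glmQLFTest) in R 4.3.3, with Benjamini-Hochberg adjustment over all genes tested and an FDR threshold of 0.05. SE is the log2 fold change over the root of F. The steps were tested on simulated counts. Alternatives used DESeq2 1.42.0, limma 3.58.1 (voom with sample weights), an edgeR exact test, other scalings, filters, terms and sample sets. Terms for library sets, correlations within sets and within LP day 7 and LP day 28, and correlations without SP sample 5 and LP day 1 sample 2 were added after seeing the data. Ratios were tested by exact permutation and correlations by 100000 permutations within groups (scipy 1.17.1), all two-sided. Totals ran from 307952 to 4413929 counts, so 3 counts are 9.74 CPM in the shallowest library and 1.62 CPM in the next.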

Additional observations from a re-analysis of the deposited data

Results flagged for a closer look

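In 24 sets of values (levels and ratios of the 3 genes in each group), 5 held a sample that stood apart from the rest of its group by a gap large for the group's range, where chance gives about 1 in 20. The sets come from the same 3 genes of the same libraries and are not independent, so 5 of 24 cannot be set against that rate. Values are on the log2 scale.

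In SPs, POU1F1 was lowest in sample 5, at 5.30 log2 CPM beside a group mean of 6.77, and the log2 ratio of PRL to POU1F1 was lowest in sample 1, at 8.36 beside a mean of 9.16. LP day 1 sample 2 was highest for GH1, at 15.55 beside a mean of 14.01, and for POU1F1, at 8.18 beside 6.73. LP day 28 sample 1 was lowest for GH1, at 12.90 beside 14.11. PRL levels had no such sample in any group.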

How the results depend on the processing

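No alternative changed the call of PRL, GH1 or POU1F1 in any comparison, except the edgeR exact test with a common dispersion, which put PRL past the threshold at LP day 28, with unchanged log2 fold changes of 1.09 against SPs (FDR 6.06e-08), 1.18 against LP day 7 (FDR 4.51e-11) and 0.96 against LP day 1 (FDR 3.14e-06). Over the other alternatives the FDR of PRL at LP day 28 against SPs ran up to 0.393. Of the alternative fold changes 371 kept direction and call and 43 changed sign, all in comparisons without a call. The causes were not tested. The 3 differences of PRL and of POU1F1 at LP day 28 kept their sign in every alternative fit. Within parts of the samples the mean log2 difference of POU1F1 did not always keep it. It was -0.11 against LP day 7 in set A, beside 0.73 in set B. Against SPs it was -0.094 in even-numbered samples, beside 1.09 in odd-numbered ones.

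Under limma voom with sample weights LP day 1 against SPs gave -0.46 for PRL and -0.019 for POU1F1, LP day 7 against LP day 1 gave 0.36 for PRL, and GH1 at LP day 28 gave 0.093 against SPs and 0.11 against LP day 1. With the parity of the sample number as a term, POU1F1 in LP day 1 against SPs was -0.030 and GH1 in LP day 28 against LP day 1 0.038. With the library set as a term, GH1 was 0.15 in LP day 1 against SPs, 0.066 in LP day 28 against SPs and 0.021 in LP day 28 against LP day 1. With LP day 1 samples 3 and 4 summed, GH1 in LP day 1 against SPs was 0.031 and the log2 ratio of GH1 to POU1F1 -0.071, and with SP samples 2, 3 and 5 alone that ratio was -0.10. With the GH1 level as a term POU1F1 in LP day 7 against LP day 1 was -0.020.

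The deviations of same-numbered samples correlated at means of -0.044 to 0.079 over the 6 comparisons, with single values from -0.19 to 0.28. Means over 5 or 6 sample numbers cannot decide whether the samples are paired by number. With the sample number as a replicate block GH1 was 0.094 in LP day 1 against SPs, 0.086 in LP day 28 against SPs and 0.12 in LP day 28 against LP day 1, PRL was 0.13 in LP day 7 against LP day 1, and the log2 ratio of PRL to POU1F1 in LP day 1 against SPs was 0.075. In comparisons with SPs, which have no sample 6, the block fit also left out LP sample 6. It called 165 genes in LP day 7 against SPs, where 40 were called with all samples and 113 without LP day 7 sample 6 and no block, and 40 in LP day 28 against SPs, beside 100 and 46.

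Leaving out each sample in turn, LP day 1 against SPs ran from -0.45 (without LP day 1 sample 2) to 0.34 for PRL, from -0.53 to 0.25 for GH1 and from -0.41 to 0.17 for POU1F1. LP day 7 against SPs ran from -0.47 to 0.12 for PRL and from -0.080 to 0.26 for POU1F1, and LP day 28 against SPs from -0.30 to 0.22 for GH1. GH1 in LP day 7 against SPs ran from 0.073 (without SP sample 5) to 0.60 (without SP sample 3). LP day 7 against LP day 1 ran from -0.59 to 0.36 for PRL and from -0.012 to 0.57 for POU1F1, and LP day 28 against LP day 1 from -0.16 to 0.48 for GH1. In LP day 1 against SPs the log2 ratio of PRL to GH1 ran from -0.47 to 0.034, PRL to POU1F1 from -0.42 to 0.075 and GH1 to POU1F1 from -0.082 to 0.21, and in LP day 7 against LP day 1 PRL to POU1F1 ran from -0.46 to 0.027 and GH1 to POU1F1 from -0.022 to 0.38.

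The correlation of PRL and POU1F1 passed in the alternatives over pooled groups and sets, at r from 0.73 to 0.84, but not in set B (r = 0.66, permutation p = 0.236) or in LP day 7 alone (r = 0.74, exact permutation p = 0.103). That of PRL and GH1 did not pass by permutation without TMM factors (0.36), uncentred (0.36), without the samples farthest from the median (0.43), with odd and even samples (0.48) or library sets (0.48) centred apart, or without SP sample 5 and LP day 1 sample 2 (0.070). That of GH1 and POU1F1 did not pass without the samples farthest from the median (0.48), with library sets centred apart (0.60) or without SP sample 5 and LP day 1 sample 2 (0.081).

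The genes called ranged over all alternatives from 0 to 68 in LP day 1 against SPs, 6 to 492 in LP day 7 against SPs, 40 to 454 in LP day 28 against SPs, 1 to 150 in LP day 7 against LP day 1, 1 to 251 in LP day 28 against LP day 7 and 19 to 266 in LP day 28 against LP day 1. Leaving out TMM factors moves all log2 fold changes of LP day 28 against LP day 7 by about -0.12. Depth limits POU1F1 alone, at 22 counts in LP day 1 sample 4.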

Other observations

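Some further likenesses were chosen after their values were seen. Within groups, ADRA2A, the alpha-2A adrenergic receptor, ran most opposite to POU1F1 of the 10445 genes ranked (r = -0.81, mean 17.7 CPM). CASR, the calcium-sensing receptor, followed POU1F1 (r = 0.85, mean 61.5 CPM), and ALDH1A1, which was among the genes most like POU1F1, had r = 0.69 with GH1. All values of a sample share a library, so these are descriptions without a test.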
